A study of Mus musculus with 62 samples.

Results

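The effect of chronic stress on the nucleus accumbens (NAc) was read from 32 of the 62 RNA libraries of the series, 16 of the NAc of stressed mice (mCRS) and 16 of the NAc of unstressed controls (CTR). All animals were wild-type C57BL/6j male mice of 15 weeks. The mCRS group went through multimodal chronic restraint stress and CTR mice had no stress, neither group received a drug or carried a transgene, and both were run through behavioural tests before tissue was taken. Tissue came from one hemisphere per animal, and the other 30 libraries are of the prefrontal cortex (PFC). The libraries were chosen by their labels alone. The question asked of them is whether chronic stress altered genes of neurons, synapses, antioxidant defence, protein quality control and the circadian clock in the NAc, and whether a single library carries any such difference.

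The NAc is the ventral part of the striatum and takes part in reward and motivation. Most of its neurons are GABAergic projection neurons, which carry either the dopamine receptor Drd1 with the peptides Pdyn and Tac1, or Drd2 with Adora2a and Penk, while a small share are interneurons. Antioxidant enzymes remove peroxides, chaperones fold proteins, and the ubiquitin-proteasome system and autophagy degrade them. The clock is a feedback loop in which Clock and Arntl switch on Per, Cry, Nr1d and PAR-bZIP genes, whose products then repress or relay the rhythm.

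RNA was measured by BRB-seq, in which an oligo-dT primer barcodes each sample before pooling, so that reads come from the 3′ end of transcripts. Totals were 945286 to 4857359 counts in CTR libraries and 1009783 to 4393520 in mCRS libraries. Levels are given as CPM, a gene's count scaled to a common library size after normalization. Across genes, 2 NAc libraries correlated by 0.448 to 0.71 (median 0.585), and the median biological coefficient of variation, the spread between libraries relative to the mean, was 0.924. Counts hold whole tissue, so that fewer cells of a type and less RNA per cell cannot be told apart.

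The label of the tissue was checked with 12 genes of striatal projection neurons, and 1 library went against it. In the library labelled NAc CTR 7, all 12 were at their lowest of the 32 libraries. Drd1 stood there at 0.432 CPM against 67.7 to 274 in the other 31, and Penk, the enkephalin precursor, at 149 against 1031 to 3273. The hypothalamic hormones oxytocin (Oxt) and vasopressin (Avp) reached 1548 and 973 CPM in it, and at most 596 and 473 elsewhere. The summed level of the 36 striatal genes was 2463 CPM in the library labelled NAc CTR 7 and 7312 to 19682 in the others. A second library, NAc mCRS 10, held 26288 CPM of choroid plexus markers, against 72.2 to 555 in the other 31, with a striatal sum of 10853. The stress contrast in the NAc was therefore also fitted without NAc CTR 7, without NAc mCRS 10 and without both, and these fits were added after the data had been seen except for the one without NAc mCRS 10.

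**Figure D1:**
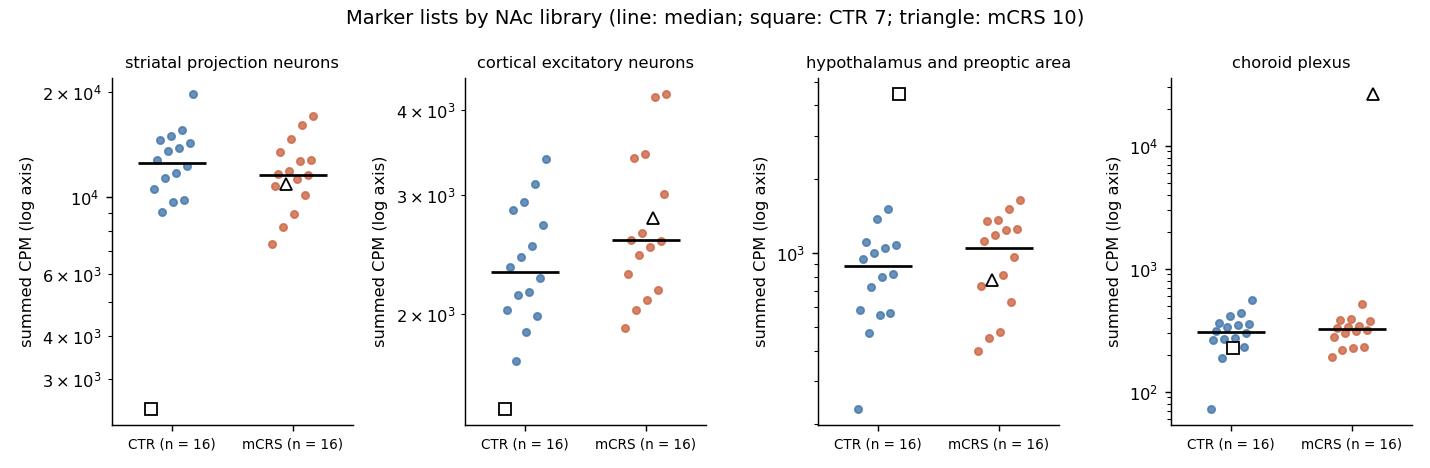
Summed CPM (log axis) of 4 marker lists in each of the 16 CTR and 16 mCRS libraries of the NAc, with the median as a line. The library labelled NAc CTR 7 (square) lies lowest for striatal genes at 2463 CPM and highest for hypothalamic genes at 4445 CPM, and NAc mCRS 10 (triangle) holds 26288 CPM of choroid plexus genes.

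Of 10141 genes tested with edgeR's quasi-likelihood test, 1 had a Benjamini-Hochberg adjusted p (FDR) below 0.05, which is 0.00986% of them. That gene was Ttr, the thyroid hormone carrier made by the choroid plexus. Its level was 22999 CPM in NAc mCRS 10, which alone held 96.0% of the CPM of all 32 libraries, and between 0 and 344 CPM in the others. The log2 fold change of Ttr, 5.38 ± 1.05 (SE, n = 16 per group, FDR = 0.0339), became −0.46 without that library (FDR = 1.0). The call also ended, with an FDR of up to 0.0768, when any CTR library other than numbers 1 and 7 was left out. No other gene had an FDR under 1.0, so that no member of the lists below passed the adjusted test. At an unadjusted p below 0.05 there were 207 genes (2.04%), 100 higher (0.986%) and 107 lower (1.06%) after mCRS. Of these 207, 75 kept p below 0.05 in every fit with a library left out in which they passed the filter, and 1, Ttr, changed sign. DESeq2 called 0 genes at an FDR below 0.05 and 393 at an unadjusted p below 0.05.

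The lists of the 5 themes name 544 genes, of which 525 are in the count table and 510 passed the filter on low counts. The dopamine receptor gene Drd3, the opioid receptor gene Oprm1 and the antioxidant genes Nqo1 and Hmox1 were not analysed here, and Chat, the enzyme of cholinergic interneurons, and the heat shock gene Hspa1b were among those under the filter. Of these 510, 20 had an unadjusted p below 0.05 (3.92%, beside 2.04% of all genes tested), 6 with a higher and 14 with a lower level after mCRS. Both shares lie under the fraction of 0.05 that this threshold would pass if no gene differed. The median log2 fold change of the 510 was −0.02, beside −0.01 over all genes. A log2 fold change above 0 was found for 228 of the 510 and for 49.3% of all genes tested. Genes of these lists were measured more tightly than most, with a median half-width of the 95% interval of 0.549 on the log2 scale, against 1.01 over all genes. For 331 of the 510 the interval lay within 1 log2 unit on both sides of 0.

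**Figure D2:**
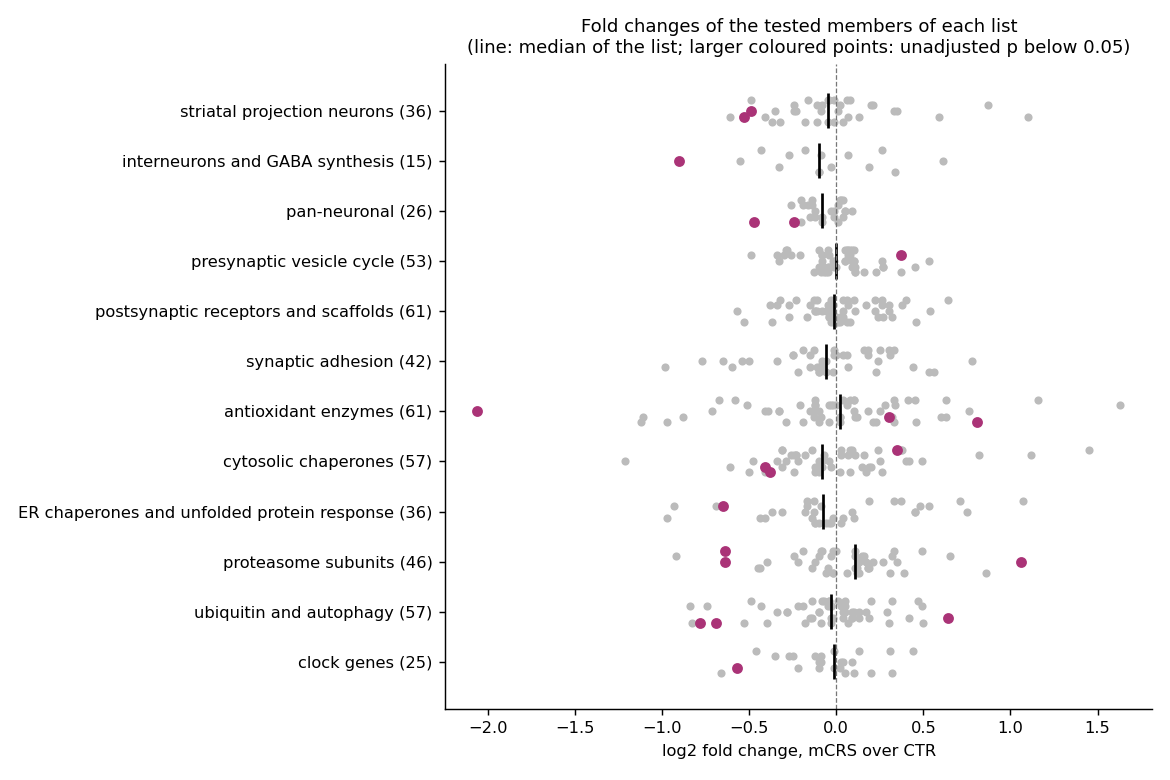
Log2 fold change (mCRS over CTR, 16 libraries per group) of the tested members of each list, 1 point per gene and a line at the median, with the number tested beside the name of the list. The 20 members at an unadjusted p below 0.05 are the larger coloured points, and the list medians lie between −0.10 and 0.11.

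Neuronal genes were measured in 3 lists with 77 tested members. Of these, 5 reached an unadjusted p below 0.05 (6.49%, beside 2.04% of all genes). All 5 were lower after mCRS, as were 1.06% of all genes at this threshold. The genes that define both classes of projection neurons had p values above 0.05. Drd1 was at 0.432, 168 and 262 CPM (lowest, median and highest) in CTR and at 72.4, 136 and 274 in mCRS libraries, a log2 fold change of −0.01 (95% interval −0.58 to 0.56). The lowest CTR value is that of the library labelled NAc CTR 7, without which the log2 fold change of Drd1 was −0.10. For Drd2 it was 0.04 (−0.60 to 0.67), for Penk 0.07 (−0.27 to 0.40), for the dynorphin precursor Pdyn 0.20 (−0.35 to 0.74) and for the substance P precursor Tac1 −0.05 (−0.34 to 0.24). Adora2a, the adenosine receptor of the Drd2 class, gave −0.41 ± 0.29 (SE, p = 0.163). Ppp1r1b, which encodes the dopamine-regulated phosphatase inhibitor DARPP-32, gave 0.08 (−0.31 to 0.47).

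In the list of striatal projection neurons 2 of 36 tested members had an unadjusted p below 0.05 (5.56%, beside 2.04% of all genes), both transcription factors. Foxp2 was at 37.3, 192 and 366 CPM in CTR and 36.0, 126 and 285 in mCRS libraries, a log2 fold change of −0.53 ± 0.25 (p = 0.0366, FDR = 1.0). Of the 16 mCRS libraries, 3 lay above the CTR median, and the ranges overlapped. Bcl11b, which directs the maturation of these neurons, was at 25.1, 385 and 938 CPM in CTR and 87.1, 299 and 515 in mCRS libraries, a log2 fold change of −0.49 ± 0.23 (p = 0.0390). Both calls were marginal. Foxp2 lay between −0.63 and −0.44 with each library left out and lost p below 0.05 in 10 of the 32 fits (highest p = 0.081), and Bcl11b lay between −0.56 and −0.36 and lost it in 12 (highest p = 0.121, without NAc CTR 6). Without the library labelled NAc CTR 7, which has the lowest Bcl11b level of CTR, Bcl11b gave −0.56 (p = 0.0052), and 4 members of the list had p below 0.05. The 2 added were the phosphodiesterases Pde10a, −0.45 ± 0.17 (p = 0.00992), and Pde1b, −0.31 ± 0.14 (p = 0.0321), both also lower after mCRS.

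Among 15 tested genes of interneurons and GABA synthesis, 1 had an unadjusted p below 0.05 (6.67%, beside 2.04% of all genes). Nos1, the neuronal nitric oxide synthase of one class of striatal interneurons, was at 39.0, 88.5 and 290 CPM in CTR and 9.06, 54.3 and 90.9 in mCRS libraries. Only 1 mCRS library lay above the CTR median and 6 lay below the lowest CTR library, though the groups overlapped. The log2 fold change of Nos1 was −0.90 ± 0.33 (p = 0.00818, FDR = 1.0) and ranged from −0.97 to −0.69 over the fits with a library left out, with a highest p of 0.0387 without NAc CTR 2, its highest library. Without both doubtful libraries it was −0.95 (p = 0.00743). The peptide genes Sst, 0.19 ± 0.13, and Npy, 0.07 ± 0.33, which mark the same class of interneurons, had p values of 0.153 and 0.825. The GABA-synthesising enzymes Gad1 and Gad2, at CTR medians of 535 and 778 CPM, gave −0.09 ± 0.14 and −0.03 ± 0.13.

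Among 26 pan-neuronal genes, 2 reached an unadjusted p below 0.05 (7.69%, beside 2.04% of all genes). Of the 26, 9 lay above 0 in log2 fold change, beside 49.3% of all genes. Nefm, the medium neurofilament of axons, was at 88.7, 347 and 553 CPM in CTR and 109.8, 212 and 638 in mCRS libraries, a log2 fold change of −0.47 ± 0.20 (p = 0.0227). Its 15 lower mCRS libraries lay below the CTR median, and the highest level of all was in NAc mCRS 8, without which the fold change was −0.65. The other neurofilaments Nefl and Nefh gave −0.14 ± 0.16 and −0.12 ± 0.31. Eno2, the neuronal enolase of glycolysis, was at 462, 707 and 944 CPM in CTR and 419.9, 611 and 815 in mCRS libraries, a log2 fold change of −0.24 ± 0.11 (p = 0.0391), and 11 of the 32 fits with a library left out gave p above 0.05. Rbfox3, the source of the NeuN antigen, gave 0.01 ± 0.14, and all 26 intervals lay within 1 log2 unit of 0.

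Synaptic genes had 1 of 156 tested members at an unadjusted p below 0.05 (0.641%, beside 2.04% of all genes). There were 3 without the library labelled NAc CTR 7 and 5 in libraries 9 to 16 alone. Over all lists of the 5 themes these 2 fits had 22 and 20 such members, beside 20 with all 32 libraries. The 1 synaptic member with all 32 libraries was Cltc, the clathrin heavy chain that coats recycling vesicles. Its presynaptic list had 53 members, of which 26 had a log2 fold change above 0. Cltc was at 160.2, 343 and 549.6 CPM in CTR and 168, 398 and 1032 in mCRS libraries, a log2 fold change of 0.37 ± 0.17 (p = 0.0373). Its 3 highest libraries were NAc mCRS 8 at 1032, NAc mCRS 3 at 776 and NAc mCRS 15 at 577 CPM. Without NAc mCRS 8 the log2 fold change of Cltc was 0.24 (p = 0.145). The clathrin light chains Clta and Cltb gave 0.11 ± 0.18 and 0.10 ± 0.17. Snap25 and Syt1, the fusion protein and the calcium sensor of vesicle release, were among the tightest values of the themes, at 0.05 (−0.15 to 0.25) and −0.07 (−0.30 to 0.16).

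The postsynaptic list had 61 tested members and 0 at p below 0.05, with a median log2 fold change of −0.01, and the adhesion list 42 members and 0, with a median of −0.06. The glutamate receptor subunits Gria1 and Grin2b gave −0.06 (−0.37 to 0.24) and −0.13 (−0.47 to 0.20). Without the library labelled NAc CTR 7, Grm5, the main group I metabotropic glutamate receptor of the striatum, moved from −0.37 (p = 0.0556) to −0.44 ± 0.17 (p = 0.0143), and Rph3a, a vesicle protein that binds Rab proteins, from 0.37 (p = 0.0811) to 0.43 ± 0.21 (p = 0.0439). Without NAc mCRS 10 the calmodulin-binding protein Nrgn moved from 0.27 (p = 0.0597) to 0.30 ± 0.14 (p = 0.0369).

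Tissue next to the NAc could enter a dissection, and markers of cortical excitatory neurons were therefore read beside these values. Their summed level over 29 genes was 1450.1, 2308 and 3388 CPM (lowest, median and highest) in CTR and 1907, 2572 and 4227 in mCRS libraries. Of the 20 tested members of this list, 16 had a log2 fold change above 0, beside 49.3% of all genes, and 0 had p below 0.05. The highest sums were those of NAc mCRS 8 at 4227 and NAc mCRS 3 at 4181 CPM, the same libraries that led for Cltc. With the mean log2 level of these markers as a covariate, the log2 fold change of Cltc was 0.15 (p = 0.428), and 10 of the 20 members of the themes kept p below 0.05. The part of cortical tissue in these differences was not tested.

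Cck, Slc30a3, Vps13a and Zfp942 were taken from the top of the study's own ranking of these libraries, so that their values are no independent evidence. Cck, the cholecystokinin precursor that cortical projection neurons carry at high levels, was at 4.19, 65.5 and 139 CPM in CTR and 9.83, 138 and 370.4 in mCRS libraries, with 8 mCRS libraries above the highest CTR library. The log2 fold change of Cck was 1.07 ± 0.34 (p = 0.00267, FDR = 1.0), and 0.40 ± 0.34 (p = 0.248) with the cortical covariate. Slc30a3, the zinc transporter of glutamatergic vesicles, had 5 CTR and 3 mCRS libraries at 0 and a highest level of 118 CPM in NAc mCRS 8. Its log2 fold change was 2.05 ± 0.92 (p = 0.0290), 1.73 (p = 0.0732) without NAc mCRS 8, and 1.54 ± 0.88 (p = 0.0848) with the covariate. Vps13a, a lipid transfer protein mutated in chorea-acanthocytosis, was at medians of 50.0 CPM in CTR and 14 in mCRS, a log2 fold change of −1.41 ± 0.50 (p = 0.00629) that was −1.37 with the covariate. The zinc finger gene Zfp942 was at medians of 1.18 and 18.3 CPM, with 6 CTR libraries and 1 mCRS library at 0, and gave 2.52 ± 0.89 (p = 0.00659).

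Antioxidant genes held the smallest p of all theme members. Prdx1 (ENSMUSG00000028691, chromosome 4, 116685544 to 116700822, plus strand) encodes peroxiredoxin 1, which reduces hydrogen peroxide with electrons from thioredoxin. It was at 17.2, 159 and 238 CPM in CTR and 134, 285 and 468 in mCRS libraries. Of the 16 mCRS libraries 10 lay above the highest CTR library and 15 above the CTR median, and 5 CTR libraries lay below the lowest mCRS library. The log2 fold change of Prdx1 was 0.81 ± 0.21 (95% interval 0.39 to 1.23, p = 0.000272), and after adjustment over 10141 genes the FDR was 1.0.

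No single library carried the difference in Prdx1. With each library left out it was between 0.73 and 0.87, with a highest p of 0.000902, and the lower end came without NAc CTR 1, which has the lowest level. It was 0.79 (p = 0.000608) without both doubtful libraries and 0.77 (p = 0.00135) with the cortical covariate. In the libraries numbered 1 to 8 it was 0.75 (p = 0.0438) and in those numbered 9 to 16 it was 0.86 (p = 0.000237). Prdx1 was the 1 of the 20 theme members with p below 0.05 in both sets. The 20 were chosen by p over all the libraries that make up these sets, so that this adds no support. In the PFC libraries the same fit gave 0.76 ± 0.25 (p = 0.00353), and the NAc minus PFC difference was 0.06 ± 0.33 (p = 0.866). Per the methods both regions came from the same mice, so that the PFC value is not from separate animals. No stretch of 70 bases in the last 600 of the Prdx1 transcript occurs in a transcript of another gene, so that its counts are not shared with the annotated pseudogenes over that end.

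The window before the start site of Prdx1 is shown because NRF2, which drives antioxidant genes, binds a motif called the antioxidant response element. The letters searched, as a short core of that motif, were TGACNNNGC on both strands. They occurred in the 250 bases before the start in 10.2% of 32851 mouse promoter windows (RefSeq, GRCm38.p6) and in 11 of 82 windows (13.4%) of the antioxidant genes, those of Prdx1, Sod1 and Txnrd1 among them. The capitals mark the match in Prdx1, which lies on the minus strand, in chr4:116685430-116685509.
Prdx1: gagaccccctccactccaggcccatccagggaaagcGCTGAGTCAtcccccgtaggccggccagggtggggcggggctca

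Over the whole antioxidant list, 3 of 61 tested members reached an unadjusted p below 0.05 (4.92%, beside 2.04% of all genes). Of the 61, 32 lay above 0 in log2 fold change, beside 49.3% of all genes, and the median was 0.02. The other peroxiredoxins gave 0.10 ± 0.17 (Prdx2), −0.04 ± 0.43 (Prdx3), −1.11 ± 0.71 (Prdx4), 0.04 ± 0.15 (Prdx5) and 0.23 ± 0.16 (Prdx6). Sod1 and Txnrd1, whose windows hold the same letters, gave 0.08 (−0.19 to 0.35) and 0.46 (−0.17 to 1.10). Gpx4, the peroxidase that removes lipid peroxides, gave −0.12 (−0.75 to 0.51), but 86.8% of the stretches at its 3′ end also occur in other annotated genes, so that its uniquely mapped counts are uncertain.

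Selenow, a small selenoprotein, was at 263, 557 and 735 CPM in CTR and 479, 671 and 885 in mCRS libraries, a log2 fold change of 0.30 ± 0.12 (p = 0.0185). It kept p below 0.05 with each library left out, but it was 0.57 in libraries 1 to 8 and 0.07 (p = 0.63) in libraries 9 to 16. Txnrd2, the mitochondrial thioredoxin reductase, was at 0, 11.6 and 69.6 CPM in CTR and 0, 1.94 and 30.7 in mCRS libraries, a log2 fold change of −2.06 ± 0.86 (p = 0.0199). The highest Txnrd2 level was that of the library labelled NAc CTR 7, and NAc CTR 1 had the same 69.6 CPM after rounding. Without NAc CTR 7 the value was −1.87 (p = 0.0395). Of the libraries, 2 CTR and 4 mCRS were at 0, so that the size of this fold depends on low counts.

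**Figure D3:**
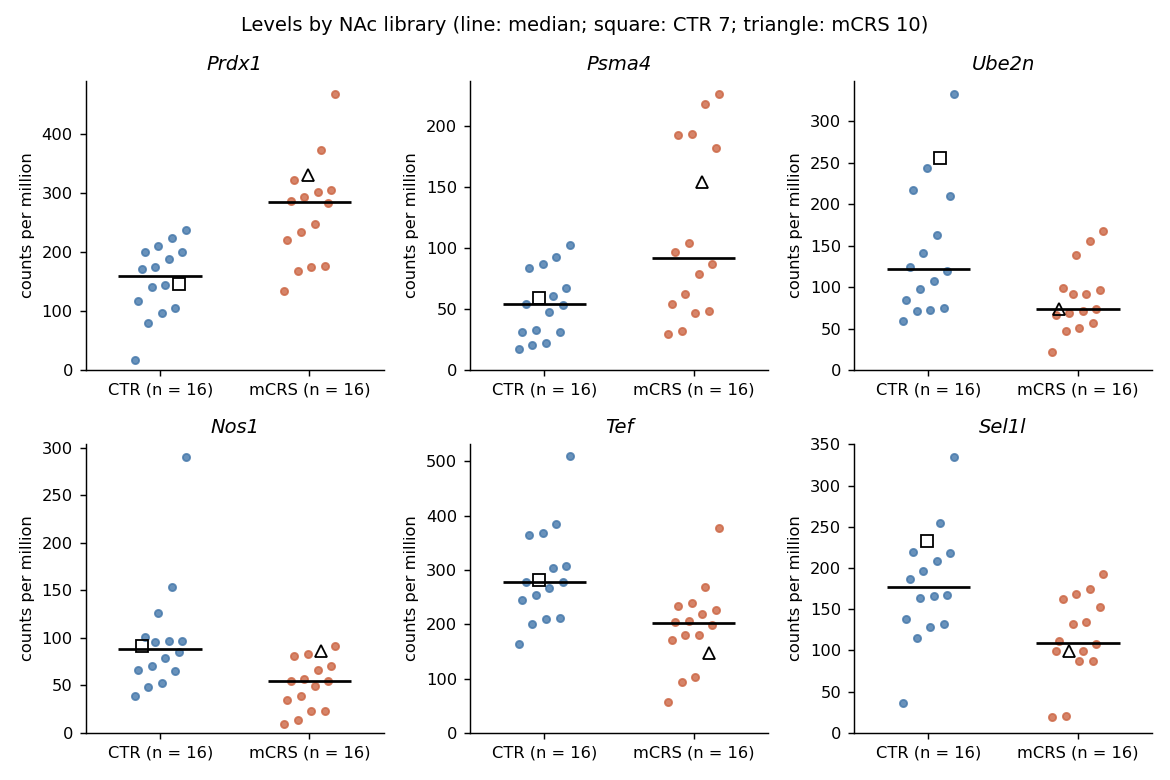
CPM of 6 genes in each of the 16 CTR and 16 mCRS libraries of the NAc, with the median as a line, the library labelled NAc CTR 7 as a square and NAc mCRS 10 as a triangle. Prdx1 and Psma4 lie higher and Ube2n, Nos1, Tef and Sel1l lower after mCRS by their medians, the groups overlap for all 6, and neither marked library is the highest or lowest of its group in any of them.

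Protein quality control was covered by 4 lists with 196 tested members. Of these, 10 (5.10%, beside 2.04% of all genes) reached an unadjusted p below 0.05, 7 with a lower and 3 with a higher level in stressed mice. In the proteasome the calls went both ways. Psma4 (ENSMUSG00000032301, chromosome 9, 54950790 to 54958030), a subunit of the outer ring of the 20S core, was at 17.5, 54.0 and 102 CPM in CTR and 30.0, 91.4 and 226 in mCRS libraries. Psma4 had a log2 fold change of 1.06 ± 0.33 (p = 0.00186, FDR = 1.0), and 7 mCRS libraries exceeded the highest CTR library while 4 lay below the CTR median. It ranged from 0.97 to 1.16 with each library left out (highest p = 0.00523), and was 1.24 with the cortical covariate. A share of 5.84% of the stretches at its 3′ end also occur in the pseudogene Gm6542.

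Both other calls of the proteasome were subunits of the 19S cap. Psmc4, an ATPase that unfolds substrates, was at 72.2, 117 and 239.9 CPM in CTR and 26.6, 82.1 and 176 in mCRS libraries, a log2 fold change of −0.64 ± 0.26 (p = 0.0178). Psmd14, the deubiquitinase of the cap, was at 71.6, 167 and 336 CPM in CTR and 11.3, 104 and 239 in mCRS libraries, with the same log2 fold change of −0.64 ± 0.26 (p = 0.0181). Both kept p below 0.05 with each library left out, with highest p values of 0.0448 and 0.0444, but Psmd14 was −1.14 in libraries 1 to 8 and −0.19 (p = 0.557) in libraries 9 to 16. Among the 46 proteasome genes, 26 lay above 0 in log2 fold change, beside 49.3% of all genes. Their median was 0.11, the highest of the 12 lists, or 0.06 without both doubtful libraries. Without them Psmb2, a subunit of the inner ring, had 0.87 ± 0.39 (p = 0.0285).

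In the list of ubiquitin and autophagy genes 3 of 57 had an unadjusted p below 0.05 (5.26%, beside 2.04% of all genes). Ube2n, a ubiquitin-conjugating enzyme, was at 59.6, 122 and 333 CPM in CTR and 21.5, 74.2 and 168 in mCRS libraries, a log2 fold change of −0.78 ± 0.27 (p = 0.00466). With each library left out it was −0.88 to −0.66, but it was −1.26 (p = 0.00228) in libraries 1 to 8 and −0.22 (p = 0.538) in libraries 9 to 16. Nbr1, an autophagy receptor for ubiquitinated cargo, gave −0.69 ± 0.32 (p = 0.0335). Usp14, a deubiquitinase bound to the proteasome, gave 0.64 ± 0.31 (p = 0.0399), and its 3′ end overlaps Thoc1 on the opposite strand. Leaving out single libraries raised p above 0.05 in 4 fits for Nbr1 (highest p = 0.0743) and in 12 for Usp14 (highest p = 0.0683).

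Of 57 cytosolic chaperones 3 had an unadjusted p below 0.05 (5.26%, beside 2.04% of all genes), and none of the 3 kept it with each library left out. Cct8, a subunit of the chaperonin TRiC that folds actin and tubulin, was at 147, 248 and 631 CPM in CTR and 61.3, 193 and 386 in mCRS libraries, a log2 fold change of −0.41 ± 0.20 (p = 0.0432). It was −0.26 (p = 0.177) without NAc CTR 4, the highest library, and −0.34 (p = 0.0878) without both doubtful libraries, and its 3′ end overlaps Usp16 on the opposite strand. The other subunits Tcp1, Cct2, Cct3, Cct4, Cct5 and Cct7 lay between −0.34 and 0.25. Hspa4l, an exchange factor for Hsp70, gave −0.38 ± 0.18 (p = 0.0423), and −0.30 (p = 0.103) without the library labelled NAc CTR 7, its highest. Pfdn5, a subunit of prefoldin, gave 0.35 ± 0.16 (p = 0.0345), and 0.31 (p = 0.0632) without NAc mCRS 10, and 18.1% of the stretches at its 3′ end lie in the overlapping gene Myg1. The abundant Hsp90aa1 and Hspa8 gave 0.07 (−0.16 to 0.30) and −0.08 (−0.31 to 0.15), the latter with 84.6% of its 3′ stretches shared with pseudogenes.

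In the endoplasmic reticulum 1 of 36 tested genes had an unadjusted p below 0.05 (2.78%, beside 2.04% of all genes). Sel1l, the adaptor of the ligase that removes misfolded proteins from this compartment, was at 36.6, 177 and 335 CPM in CTR and 18.8, 109 and 193 in mCRS libraries. Only 1 mCRS library lay above the CTR median, and 7 CTR libraries lay above the highest mCRS library. The log2 fold change of Sel1l was −0.65 ± 0.25 (p = 0.0119) and ranged from −0.72 to −0.56 over the fits with a library left out (highest p = 0.031). The genes of the unfolded protein response gave −0.18 ± 0.18 (Hspa5, the chaperone BiP), −0.13 ± 0.26 (Atf4), −0.17 ± 0.51 (Ddit3) and −0.31 ± 0.24 (Xbp1).

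**Figure D4:**
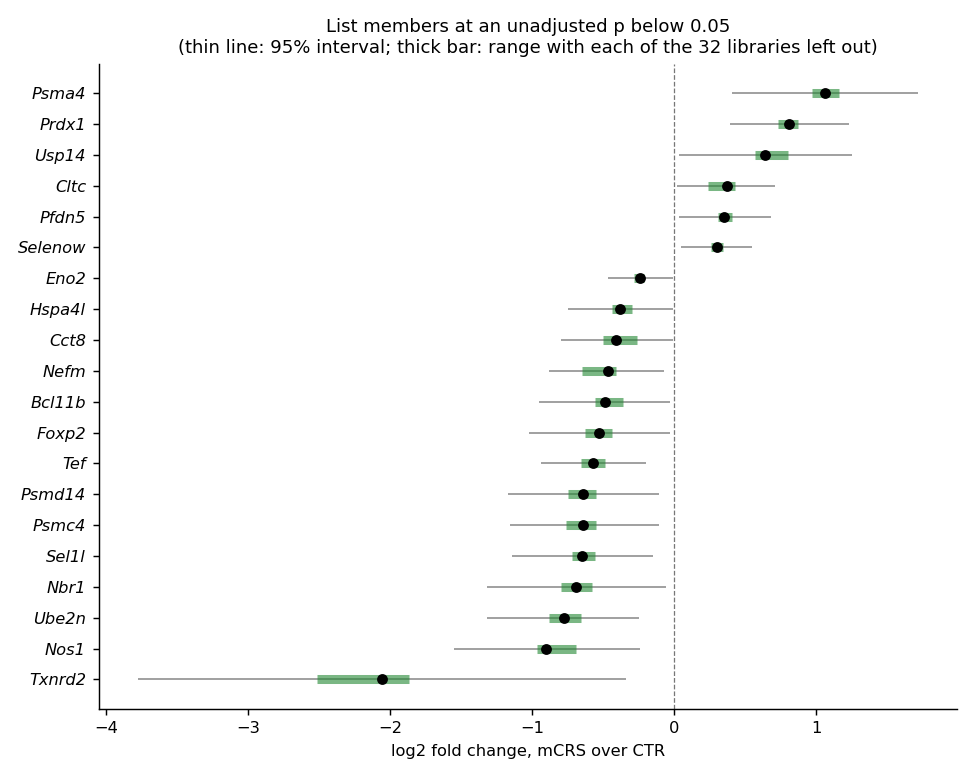
Log2 fold change (mCRS over CTR, x axis) of the 20 theme members at an unadjusted p below 0.05, with the 95% interval as a thin line and the range over the 32 fits with a library left out as a thick bar. All 20 kept their sign with each library left out, with Txnrd2 ranging from −2.52 to −1.87 and Prdx1 from 0.73 to 0.87.

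Dependence on single libraries can be put together over the 20 members. The largest share of a gene's CPM held by 1 library was between 4.45% and 14%, beside 3.12% for an equal share and 96.0% for Ttr. None of the 20 changed sign with a library left out, and 11 kept p below 0.05 in all 32 fits. These were Nos1, Nefm, Prdx1, Selenow, Txnrd2, Sel1l, Psma4, Psmc4, Psmd14, Ube2n and Tef. Of the 11, Selenow (0.21, p = 0.101), Txnrd2 (−1.72, p = 0.0636) and Psmd14 (−0.47, p = 0.0946) lost it with the cortical covariate, and the others did not. Without the library labelled NAc CTR 7, 18 of the 20 had p below 0.05, without NAc mCRS 10 also 18, and without both 17. The numbering of the libraries does not name a batch in the labels, and each of the sets 1 to 8 and 9 to 16 holds 8 libraries per group. In both sets 19 of the 20 members had the same sign, and Txnrd2 did not pass the filter in libraries 1 to 8. The 20 members were chosen by p over all 32 libraries. Kept signs and small p values in parts of these libraries follow largely from that choice and add no support. Of the 20, 1 had p below 0.05 in both sets.

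Clock genes had 1 of 25 tested members at an unadjusted p below 0.05 (4.0%, beside 2.04% of all genes). Of the 25, 11 lay above 0 in log2 fold change, beside 49.3% of all genes. The list also holds the tetraspanin Tspan4, which is not a known component of the clock and was kept as listed. Tef (ENSMUSG00000022389, chromosome 15, 81802421 to 81826863) encodes a PAR-bZIP factor that relays the clock to output genes. It was at 164, 277 and 509.9 CPM in CTR and 57.2, 202 and 377 in mCRS libraries, and 1 mCRS library lay above the CTR median while 4 lay below the lowest CTR library. The log2 fold change of Tef was −0.57 ± 0.19 (95% interval −0.94 to −0.20, p = 0.00325, FDR = 1.0). It ranged from −0.66 to −0.49 over the fits with a library left out (highest p = 0.00911), and it was −0.54 (p = 0.00614) without both doubtful libraries. It was −0.73 (p = 0.0164) in libraries 1 to 8 and −0.40 (p = 0.0875) in libraries 9 to 16.

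Both relatives of Tef lay near 0. Dbp was at 73.8, 168 and 299.6 CPM in CTR and 107, 172 and 329.8 in mCRS libraries, a log2 fold change of 0.09 (−0.30 to 0.49), and Hlf gave −0.01 (−0.63 to 0.60). Of the repressors of the loop, Per1 gave −0.01 (−0.82 to 0.79), Per3 0.05 (−0.93 to 1.03), Nr1d1 0.04 (−0.57 to 0.65) and Nr1d2 −0.12 (−0.87 to 0.63). Ciart gave 0.10 (−1.47 to 1.66), Bhlhe40 −0.35 (−1.67 to 0.97) and Per2 −0.46 (−2.31 to 1.39), with 4 CTR and 6 mCRS libraries at 0 for Per2. The activators Arntl and Clock gave −0.10 (−1.30 to 1.10) and 0.03 ± 0.39. For 14 of the 25 the interval lay within 1 log2 unit of 0, and the intervals of the others do not exclude larger shifts. The paper gives no time of day for the collection of tissue.

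**Figure D5:**
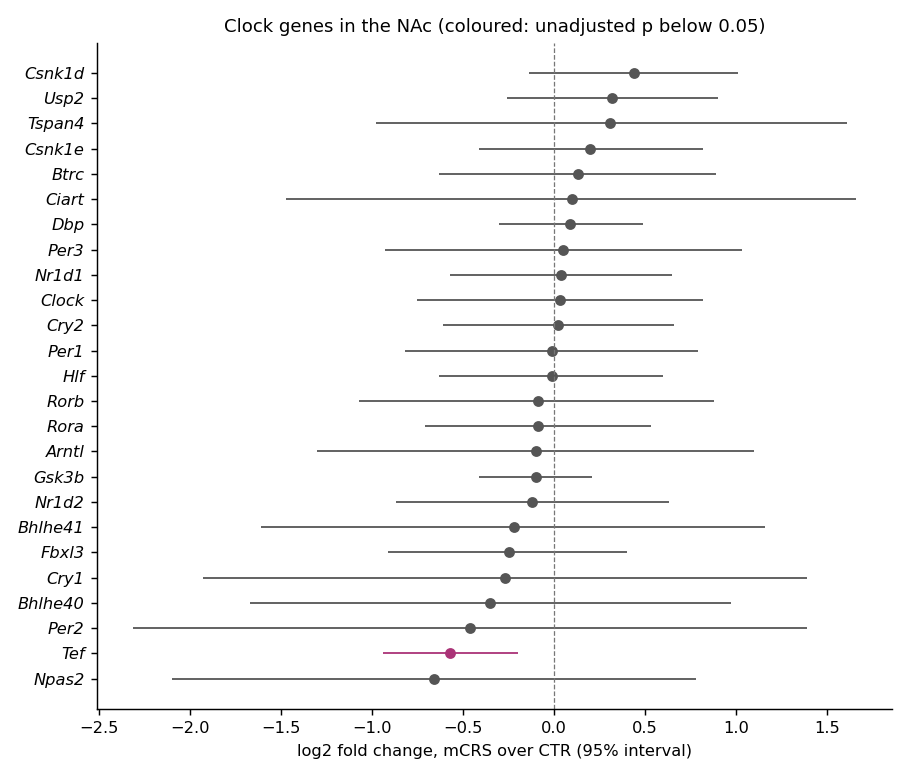
Log2 fold change (mCRS over CTR, x axis) with 95% interval for the 25 clock genes tested in the NAc, 16 libraries per group. Tef, the coloured gene, has an interval of −0.94 to −0.20, and the intervals of all other clock genes include 0.

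Clock and Arntl bind the E-box CACGTG, a palindrome read alike on both strands. The 250 bases before the start held it in 6.02% of all promoter windows, and in 7 of 33 windows (21.2%) of the clock genes, those of Bhlhe41, Ciart, Cry1, Per1, Tspan4 and both windows of Tef. The windows of Tef are shown beside those of Per1 and Ciart, which hold the same letters and had log2 fold changes of −0.01 and 0.10, with the E-box in capitals and the strand of the gene printed. Their positions (GRCm38.p6) are chr15:81802509-81802588 and chr15:81811239-81811318 for Tef, chr11:69098746-69098825 for Per1, and chr3:95882258-95882345 on the minus strand for Ciart, where the letters occur 3 times.
Tef, first start: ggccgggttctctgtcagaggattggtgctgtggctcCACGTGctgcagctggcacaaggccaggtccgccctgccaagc
Tef, second start: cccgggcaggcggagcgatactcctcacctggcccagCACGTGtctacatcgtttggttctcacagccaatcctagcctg
Per1: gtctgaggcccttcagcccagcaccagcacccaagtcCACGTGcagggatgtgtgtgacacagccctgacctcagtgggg
Ciart: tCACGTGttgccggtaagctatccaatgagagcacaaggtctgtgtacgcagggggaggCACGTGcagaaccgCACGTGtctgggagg

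The stress effect in the NAc was set against that in the PFC by testing the difference of both effects in one fit of 62 libraries. Per the methods both regions came from the same mice, but the fit had no term for the animal. Its SE and p values therefore treat the 62 libraries as independent. In this fit 341 of 11025 genes (3.09%) had an unadjusted p below 0.05 and 1 (0.00907%) an FDR below 0.05. Of the 20 theme members, 0 differed between the regions at an FDR below 0.05. At an unadjusted p below 0.05 there were 5 of the 20 (beside 3.09% of all genes), Foxp2, Cct8, Sel1l, Psmd14 and Tef. The 20 were chosen for a small p in these same NAc libraries, which by itself favours a difference from the PFC. This count is therefore no independent evidence of a difference between the regions. Cct8 had −2.03 ± 0.55 in the PFC, so that the NAc minus PFC difference was 1.65 ± 0.60 (p = 0.00711, FDR = 1.0). Tef gave 0.03 ± 0.22 in the PFC, a difference of −0.59 ± 0.28 (p = 0.0399), and Sel1l 0.23 ± 0.26, a difference of −0.87 ± 0.37 (p = 0.0203). Prdx1, Cltc, Pfdn5 and Cct8 had an unadjusted p below 0.05 in the PFC too, beside 3.5% of the 8916 genes tested there. Cltc and Pfdn5 had PFC values of 0.40 ± 0.17 and 0.47 ± 0.19, and differences of −0.03 ± 0.25 and −0.11 ± 0.25.

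Outside the themes, the genes of smallest p included several with tight values. Cdc42, a small GTPase of the cytoskeleton, was at 271, 425 and 589 CPM in CTR and 307, 603 and 797 in mCRS libraries, with 8 mCRS libraries above the highest CTR library and a log2 fold change of 0.47 ± 0.13 (p = 0.0009, FDR = 1.0). With each library left out Cdc42 gave 0.44 to 0.52, and it was 0.52 in libraries 1 to 8 and 0.42 in libraries 9 to 16, both with p below 0.05. Agap3, an Arf GTPase-activating protein, gave 0.48 ± 0.16, Tpgs1, a subunit of the tubulin polyglutamylase, 0.83 ± 0.29, and Pcca, the mitochondrial propionyl-CoA carboxylase subunit, 1.31 ± 0.40. Lower levels were found for Rcan2, a calcineurin regulator, −0.58 ± 0.19, Wrb, a receptor for tail-anchored proteins, −1.02 ± 0.35, and for Commd6 (−1.12 ± 0.39), Gmcl1 (−1.54 ± 0.52) and the xylosylprotein galactosyltransferase B4galt7 (−2.61 ± 0.91), the last with 7 mCRS libraries at 0. In the same sets Pcca gave 2.10 and 0.61 (p = 0.214), Rcan2 −0.90 and −0.29 (p = 0.223), Commd6 −1.82 and −0.40 (p = 0.45), Gmcl1 −1.39 (p = 0.12) and −1.70, Tpgs1 0.66 (p = 0.175) and 1.01, Agap3 0.43 (p = 0.115) and 0.53, and Wrb −1.09 and −0.93 (p = 0.0651), where p is given if above 0.05, and B4galt7 passed the filter only in libraries 9 to 16. Each of these genes kept an unadjusted p below 0.05 with single libraries left out, in 32 fits or, for B4galt7, in the 16 in which it passed the filter. They were chosen for their small p in these same libraries, so that this follows largely from the choice and adds no support.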

How the data were processed

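BRB-seq libraries of 16 mCRS and 16 CTR mice were analysed, with 30 PFC libraries for the interaction. The deposited values are unnormalized counts per gene for 11121 genes. Per the labels and the methods, the authors mapped reads with STAR to mm10 and counted uniquely mapped reads with HTSeq (0.9.1 in the submitters' processing notes). A strand setting and removal of read copies are not given in the sources used here, so that intervals cover the spread between libraries only.

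Counts were fitted with edgeR 4.0.16 (R 4.3.3), using TMM factors, filterByExpr with its defaults and a quasi-likelihood test, and p values were adjusted by Benjamini-Hochberg over all genes tested. Labels give replicate numbers and the methods 16 animals per group, and p values measure the spread between these libraries. A library stood apart where a marker list exceeded the median by over 5 median absolute deviations on the log2 scale. NAc mCRS 10 met this rule and NAc CTR 7 did not. NAc CTR 7 was taken by a rule added after the data were seen. Its striatal sum lay below the median by over 5 median absolute deviations. Symbols and positions are those of GENCODE M21 (11120 genes matched). Copies at the 3′ end were windows of 70 bases in the last 600 of the longest coding transcript. The steps were tested on simulated data.

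The members and lists were chosen with earlier results of these data known. Genes named are the list members at p below 0.05 (at most 6 a list), a fixed set of defining genes, 4 genes from the top of the study's ranking, the 15 of smallest p and Ttr. Oxt, Avp, Adora2a, Pde10a, Pde1b, Grm5, Rph3a, Nrgn, Psmb2, Sst, Npy, Gad1, Gad2, Rbfox3, Txnrd1, Hlf, Clock, Atf4, Ddit3, Xbp1 and relatives of named genes were chosen with their values in view. Alternatives tried included DESeq2 1.42.0, other normalizations and filters, covariates, libraries 1 to 8 or 9 to 16, single libraries left out and permutation tests with 100000 resamples.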

Additional observations from a re-analysis of the deposited data

How the results depend on the processing

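The count of 1 gene at an FDR below 0.05 was the same with RLE or upper-quartile normalization, at least 10 counts in 50% of the libraries, the cortical covariate, libraries 9 to 16 or without NAc CTR 7. There were 2 such genes with no filter and with all 62 libraries in one fit. There were 0 with the robust spread, the replicate block, the numbering (1 to 8 or 9 to 16), library size or the oligodendrocyte level as a covariate, libraries 1 to 8, DESeq2, and without NAc mCRS 10 alone or with NAc CTR 7. With single libraries left out there were 0 to 1, and 0 in 15 of 32 such fits. Ttr reversed to −0.46 without NAc mCRS 10, −0.56 without both libraries and −1.14 in libraries 1 to 8, and ranged from −0.46 to 6.53 with single libraries left out, the latter without NAc CTR 1. Genes at an unadjusted p below 0.05 numbered 183 to 236 with single libraries left out and 393 with DESeq2, and theme members 16 to 27. Same-numbered CTR and mCRS libraries did not deviate together (correlations of −0.04 to 0.04, 0 of 16 pairs above 0.1). No pairing by number was seen, but with libraries this variable such correlations cannot exclude one. The replicate block gave 0 genes at an FDR below 0.05 and 250 at an unadjusted p below 0.05, beside 207 without it.

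Of 34 named genes at p below 0.05, 33 kept their sign under every alternative run, and Ttr did not. The alternatives reuse the libraries that gave these p values, so that kept signs follow largely from the choice of genes. The other named genes changed sign in 100 of their values under alternatives, none of them with p below 0.05. In permutation tests of mean log2 CPM (two-sided), p was 0.00018 for Prdx1, 0.0014 for Tef, 0.00182 for Nos1 and 0.00602 for Psma4, and above 0.05 for Foxp2 (0.0826), Bcl11b (0.301), Cltc (0.101), Hspa4l (0.0845), Cck (0.0639) and Ttr (0.253). The cause of these shifts was not tested, nor was the part of depth in the wide intervals of sparse genes.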

Other observations

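Per the paper, tissue was collected 4 days after the last stress session. Immediate early genes, which neurons switch on within minutes of activity, had 16 tested members, with a median of −0.42 and 0 at p below 0.05. Of the 16, 4 had a log2 fold change above 0, beside 49.3% of all genes. Arc gave −0.63 ± 0.58, Egr1 0.01 ± 0.24 and Homer1 −0.34 ± 0.22, and the median half-width of the intervals was 1.17. Glucocorticoid targets had 19 tested members and 0 at p below 0.05, with a median of 0.04. Fkbp5, the co-chaperone of the glucocorticoid receptor, gave 0.38 (−0.75 to 1.51), Sgk1, a kinase induced by it, 0.28 (−0.59 to 1.15), and the metallothionein Mt1 0.00 ± 0.13.

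Among glial and vascular genes, 8.0% of 25 oligodendrocyte, 8.7% of 23 astrocyte and 17.6% of 17 endothelium and blood genes had an unadjusted p below 0.05, beside 2.04% of all genes, and each had an FDR of 1.0. The 2 oligodendrocyte genes were Cldn11, a tight junction protein of myelin, at 0.48 ± 0.18, and Enpp2 at 0.86 ± 0.32. Enpp2, also listed for the choroid plexus, was at 2437 CPM in NAc mCRS 10 and at most 328 in the other 31 libraries, with medians of 176 in CTR and 173 in mCRS, and gave 0.05 ± 0.23 (p = 0.83) without NAc mCRS 10. The astrocyte genes were the transporters Slc1a3 (−0.35 ± 0.14) and Slc4a4 (−0.38 ± 0.18), which kept p below 0.05 without either doubtful library and without both. The vascular genes were Vwf (2.32 ± 0.93), Itm2a (−0.92 ± 0.43) and the tight junction gene Cldn5 (−0.87 ± 0.41, and −0.83 with p = 0.0506 without NAc mCRS 10), and of 19 microglial genes 0 had p below 0.05. The microglial sum was 3916 CPM in the library labelled NAc CTR 7 and at most 2884 in the other libraries. These glial and vascular genes were named after their values were seen.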
